A study of Arabidopsis thaliana with 18 samples.

Results

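The comparison is between stage 13 and stage 12 flowers of one genotype, the *arf6-2 arf8-3* double mutant of *Arabidopsis thaliana*, and it asks which transcripts still changed with age in flowers that stayed closed. Its members are 6 Affymetrix ATH1 arrays, 3 per stage with the replicate letters A, B and C, out of 18 arrays in the series. The 6 wild-type arrays of the same stages served as the reference, and the *myb21-5 myb24-5* arrays were kept out of the fit. All plants were of the Columbia ecotype, were grown in long days and were harvested in the morning. In wild type, stage 12 is the largest closed bud and stage 13 the first open flower. Mutant flowers do not open, so their stage 13 was set by the position at which wild-type inflorescences carry open flowers, and in the mutant the 2 stages differ in age without a difference in opening. Each mutant group was of a single allele combination in which both genes are lost throughout the plant.

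*ARF6* and *ARF8* encode Auxin Response Factors, transcription factors that bind auxin-responsive promoters and are held back by Aux/IAA proteins until auxin triggers the removal of those proteins. In flowers they are needed for jasmonate production, and through jasmonate for expression of *MYB21* and *MYB24*, whose products act in petal and stamen growth. Flowers lacking both ARFs keep short petals, short stamens with closed anthers, and immature gynoecia.

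Both targeted genes were low in every mutant array at either stage. *ARF6* (At1g30330) had log2 expression values of 4.84, 5.11 and 4.77 in mutant stage 12 replicates A, B and C and 4.73, 5.27 and 4.79 at stage 13, against wild-type means of 9.55 and 9.37. *ARF8* (At5g37020) had 5.73, 6.11 and 6.41 at stage 12 and 5.86, 5.95 and 6.23 at stage 13, against wild-type means of 10.28 and 10.08. The mutant arrays of both stages overlapped for both genes, and all of them lay below wild type. One array stood apart from its label elsewhere in the series. Replicate A of the group labelled *myb21-5 myb24-5* at stage 13 differed from *arf6-2 arf8-3* stage 13 replicate A with an SD of only 0.121 over the log2 values of all probe sets, while the 3 mutant stage 13 replicates differed from each other with SDs of 0.265 to 0.346.

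Far fewer genes passed the test in the mutant than in wild type. Of 22746 probe sets tested, 39 rose and 28 fell between stages 12 and 13 in *arf6-2 arf8-3* at an adjusted p under 0.05 (limma, Benjamini-Hochberg) and at least a 2-fold change, that is 0.171% and 0.123% of those tested. In wild type 433 rose and 394 fell (1.9% and 1.73%). The sizes of the changes differed less than these counts. Whatever the test said, 256 probe sets were at least 2-fold higher and 329 at least 2-fold lower in the mutant at stage 13, against 475 and 483 in wild type, and the median absolute log2 change was 0.119 in the mutant and 0.123 in wild type. The SD of the log2 changes over all probe sets was 0.357 in the mutant and 0.467 in wild type. The difference between the 2 stage changes was itself tested, and 57 probe sets were more positive and 165 more negative in the mutant (0.251% and 0.725%).

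The mutant counts depended on which arrays were in the fit. Stage 12 replicate C differed from replicates A and B with SDs of 0.415 and 0.481 in log2 value, while A and B differed from each other with an SD of 0.31. Without stage 12 replicate C, 335 probe sets rose and 358 fell. Leaving out any other single array of the fit gave fewer calls, with 8 and 2 without mutant stage 12 replicate A, 6 and 1 without stage 12 B, 13 and 9 without stage 13 A, 18 and 8 without stage 13 B, and 8 and 0 without stage 13 C. Leaving out a wild-type array, which enters only through the shared spread, gave 20 and 10 without stage 12 A, 26 and 25 without stage 12 B, 17 and 9 without stage 12 C, 20 and 9 without stage 13 A, 19 and 8 without stage 13 B, and 27 and 13 without stage 13 C. Mutant arrays of the same letter deviated together from their group means, with correlations over all probe sets of 0.74, 0.33 and 0.48 for A, B and C. With the letter as a replicate block, 137 probe sets rose and 178 fell in the mutant (0.602% and 0.783%), while the wild-type counts were 467 and 444 (2.05% and 1.95%). All 39 rises and 28 falls were among the calls made with the block.

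Genes that changed at flower opening in wild type had smaller median changes in the mutant, in the same direction. The 433 probe sets that rose in wild type, by a median of 1.49 on the log2 scale, had a median change of 0.32 in the mutant (quartiles 0.04 and 0.79), beside a median of -0.01 over all probe sets. Of these, 336 (77.6%) were higher at stage 13 in the mutant by their means, and 141 (32.6%) had all 3 mutant stage 13 arrays above all 3 stage 12 arrays, against 10.1% of all probe sets. The 394 probe sets that fell in wild type, by a median of 1.55, had a median change of -0.61 in the mutant (quartiles -1.17 and -0.22). Of these, 335 (85.0%) were lower at stage 13 in the mutant, and 187 (47.5%) did not overlap between the stages, against 10.9% of all probe sets. Since both sets were chosen by their change in wild type, their wild-type medians are raised by that choice, and no test was run on the sets as wholes.

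Few members of these sets passed the test in the mutant. With the adjusted p under 0.05 and no fold required, 23 of the wild-type rises rose in the mutant and 1, *WAG2*, fell, and 19 of the wild-type falls fell and 0 rose. The background was 0.44% of all probe sets rising and 0.325% falling in the mutant at this rule. In wild type 4.63% rose and 4.05% fell at this rule, and 0.409% were more positive and 0.914% more negative in the test of the difference. These are the shares beside which the counts of gene list members below stand. With the replicate block these counts were 119 and 5 for the rises and 133 and 0 for the falls, against 4.02% and 4.56%. In the test of the difference with the block, 1.58% of all probe sets were more positive and 2.61% more negative, and in the mutant without stage 12 replicate C 3.71% rose and 3.88% fell. At an unadjusted p under 0.05 (limma), 7.86% of all probe sets were higher and 8.51% lower in the mutant. The unadjusted counts of list members below stand beside those 2 shares. By the test of the difference, 143 of the rises (33.0%) and 43 of the falls (10.9%) changed less in the mutant than in wild type. Both sets were chosen by the same wild-type change that this test subtracts. That choice by itself favours calls of a smaller change in the mutant, so these 2 counts are not independent evidence.

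Array by array, the 2 sets moved apart from each other in the mutant. The mean log2 value of the wild-type rises was 6.85, 6.79 and 7.18 in mutant stage 12 replicates A, B and C and 7.31, 7.37 and 7.55 at stage 13. Every mutant stage 13 array lay above every mutant stage 12 array, but all of them were far below the wild-type stage 13 arrays, at 8.57, 8.74 and 8.79. The mean of the wild-type falls was 8.45, 8.17 and 7.95 at mutant stage 12 and 7.66, 7.64 and 6.88 at stage 13, and there the mutant stage 13 replicate C came close to the wild-type stage 13 values of 6.87, 6.75 and 6.71. For both sets, stage 12 replicate C lay nearest to the stage 13 arrays. Its part in the counts above is given by the fit without it.

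**Figure D1:**
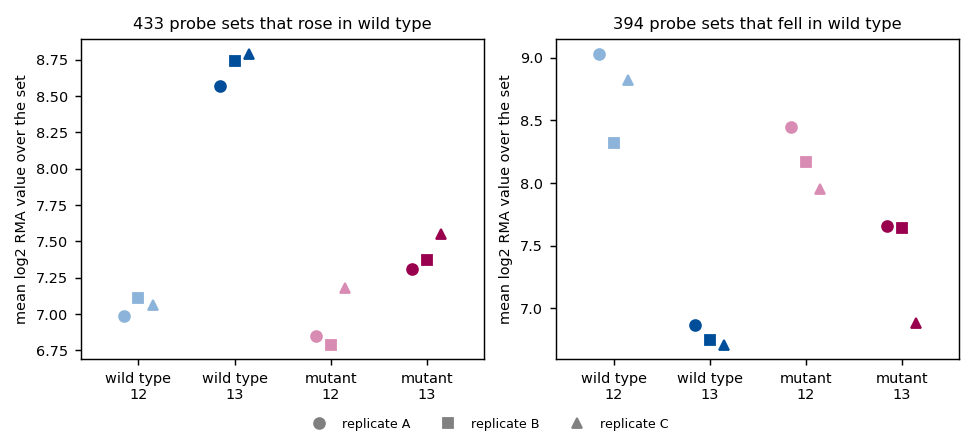
Mean log2 expression value of the 433 probe sets that rose and the 394 that fell in wild type between stages 12 and 13, 1 point per array, for mutant and wild-type arrays of both stages. In the mutant the rises ended between 7.31 and 7.55, below the wild-type stage 13 arrays at 8.57 to 8.79, and the falls ended between 6.88 and 7.66.

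The genes that rose in the mutant had in most cases also risen in wild type. The 39 rises had a median log2 change of 1.3 in the mutant and 0.84 in wild type, 37 were positive in wild type, and 18 were called there. The 28 falls had a median of -1.34 in the mutant and -1.10 in wild type, 25 were negative in wild type and 15 were called there. The rises were in most cases already above wild type at stage 12, by a median of 0.87 on the log2 scale (36 of 39 above), and at stage 13 the median was 1.22 (35 of 39). All 67 calls had non-overlapping arrays between the mutant stages, which a call makes likely. Of the 39 rises, 10, and of the 28 falls, 8, were on probe sets that the tables used here do not name.

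**Figure D2:**
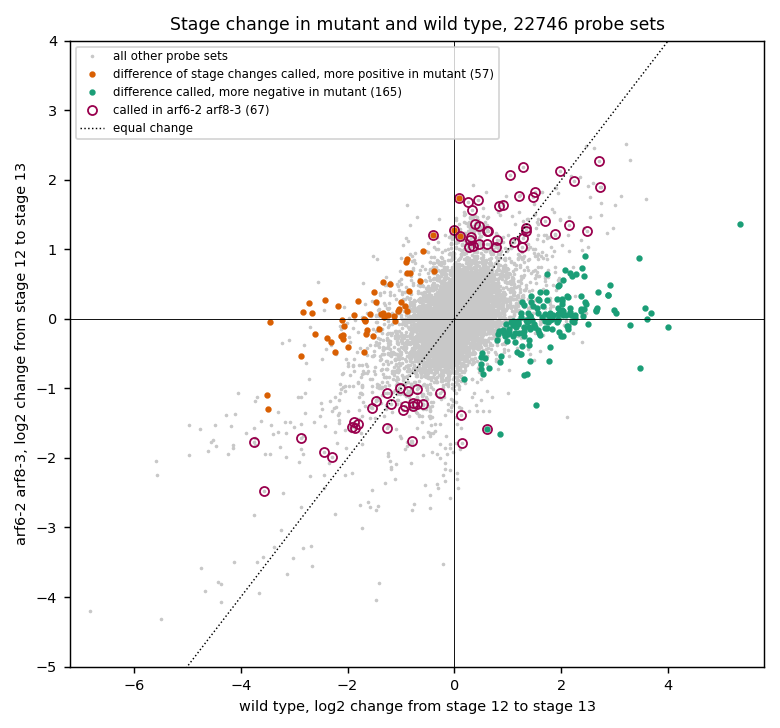
Stage 13 minus stage 12 log2 change in the mutant against the same change in wild type, 1 point per probe set, with the calls in the mutant and in the test of the difference marked. Most mutant calls lie in the quadrants where both genotypes moved the same way, and most calls in the difference test lie near 0 on the mutant axis.

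The clearest rise in the mutant was of a gene with no known role. At5g57340, an expressed protein, had log2 values of 6.52, 6.11 and 6.72 in stage 12 replicates A, B and C and 8.03, 8.38 and 8.22 at stage 13. All stage 13 arrays were above all stage 12 arrays, and the change was 1.76 ± 0.15 (SE, 3 arrays per stage), or 3.38-fold, with an adjusted p of 0.00277 (limma). It rose in wild type too, by 1.2 (adjusted p = 0.00071), and the difference of 0.56 between the changes did not pass the test (adjusted p = 0.31).

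Among the named rises, *DIN2* (At3g60140), a dark-induced beta-glucosidase gene also called *BGLU30*, had 8.44, 7.76 and 8.58 at stage 12 and 10.05, 9.76 and 10.21 at stage 13. Every stage 13 array was at least 1 log2 unit above every stage 12 array, a change of 1.74 ± 0.23 (SE), or 3.35-fold (adjusted p = 0.0157). In wild type *DIN2* stayed between 4.5 and 5.2 on all arrays, with a change of 0.08, and the difference of 1.66 between the changes passed the test (adjusted p = 0.0361). *DIN2* was the only one of the 15 largest named rises for which it did. *HIS1-3* (At2g18050), a linker histone variant induced by drought and abscisic acid, had 9.41, 8.09 and 9.36 at stage 12 and 10.6, 10.35 and 11.03 at stage 13 (1.71 ± 0.34, adjusted p = 0.0493). Stage 12 replicate B was the low array here, and the stages did not overlap. *BGLU45* (At1g61810), a beta-glucosidase linked to lignin precursors, had 7.52, 6.23 and 7.55 at stage 12 and 8.9, 8.36 and 8.76 at stage 13 (1.57 ± 0.31, adjusted p = 0.0486), again with replicate B lowest at each stage. Neither gene passed the test in wild type, at 0.44 and 0.33, and neither difference did (adjusted p = 0.314 and 0.266).

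Beta-glucosidase genes as a family did not move together. After *DIN2* and *BGLU45* had been seen among the largest rises, the 25 named *BGLU* genes on the array were counted, and 4 of 25 rose in the mutant at an adjusted p under 0.05, 0 fell, and the median change was -0.04. The other members that rose were *BGLU36* (At1g51490), with 4.77, 4.52 and 5.15 at stage 12 and 6.02, 6.08 and 6.33 at stage 13 (1.33, adjusted p = 0.0291), and *BGLU11* (At1g02850), at 0.51 (adjusted p = 0.0455). One further member, *ATA27* or *BGLU20*, is an anther gene described below.

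*TI1* (At2g43510), a defensin-like trypsin inhibitor, rose in both genotypes. It had 7.87, 7.08 and 7.76 at mutant stage 12 and 8.95, 8.6 and 9.19 at stage 13, without overlap (1.35 ± 0.21, adjusted p = 0.0267), and rose by 2.15 in wild type. At1g56100, which encodes a protein with a pectinesterase inhibitor domain, had 8.19, 7.36 and 8.83 at stage 12 and 9.98, 9.79 and 10.27 at stage 13 (1.89 ± 0.33, adjusted p = 0.0372), with a wild-type rise of 2.72. At2g39400, an alpha/beta hydrolase gene, had 7.13, 6.45 and 7.53 at stage 12 and 8.38, 8.27 and 8.71 at stage 13 (1.41 ± 0.22, adjusted p = 0.0268), with a wild-type rise of 1.70. In each of these the mutant started higher than wild type and rose by less, but none of the 3 differences passed the test (adjusted p of 0.305 to 0.901). *TI1* was named only from tables of genes selected on these arrays for a stage 12 difference from wild type. The remaining named rises, At2g21655, At4g09090, At3g57850, At4g07515, At3g57840, At2g38900, At1g16950 and At1g33055, have no role given by the tables used here, and their log2 changes ran from 1.36 to 2.27. Of the 15 largest named rises, 9 had an adjusted p under 0.05 in wild type as well.

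Among the named falls, *EXPA5* (At3g29030), an alpha-expansin that loosens cell walls, had 10.15, 10.73 and 9.16 at stage 12 and 8.74, 8.22 and 7.74 at stage 13. The arrays did not overlap although stage 12 replicate C lay low, and the change was -1.78 ± 0.35 (SE), a 3.44-fold fall (adjusted p = 0.0493). Wild type stayed between 11.36 and 11.97, with a change of 0.14. The difference of -1.92 missed the threshold (adjusted p = 0.101) and passed it with the replicate block (0.0457).

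*MLP28* (At1g70830), of the major latex protein family within the Bet v I allergen fold, was the only one of the 15 largest named falls that differed from wild type by the test. It had 10.38, 10.12 and 9.61 at mutant stage 12 and 8.78, 8.35 and 8.21 at stage 13, so that all stage 13 arrays were below all stage 12 arrays (-1.59 ± 0.24, a 3.01-fold fall, adjusted p = 0.0266). In wild type its mean went from 11.76 to 12.36, and the changes differed by -2.19 (adjusted p = 0.0109). *TPS11* (At5g44630), a sesquiterpene synthase of the flower volatile blend, had 9.58, 9.62 and 9.22 at stage 12 and 8.34, 8.49 and 7.45 at stage 13 (-1.38 ± 0.23, adjusted p = 0.0352). The wild-type means were 11.96 and 12.09, and the difference of -1.51 was just outside the threshold (adjusted p = 0.0531) and inside it with the replicate block (0.0136).

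Of the 15 largest named falls, 9 had an adjusted p under 0.05 in wild type as well. *TGA9* (At1g08320), a bZIP factor required in anther development, had 8.2, 8.54 and 8.22 at stage 12 and 7.04, 7.29 and 6.85 at stage 13, a tight fall of 1.26 ± 0.15 on the log2 scale (adjusted p = 0.0117) beside -0.93 in wild type. *CSLA01* (At4g16590), a glucomannan synthase-like gene, had 10.38, 11.01 and 10.13 at stage 12 and 9.1, 9.71 and 8.79 at stage 13 (-1.31 ± 0.24, adjusted p = 0.0428), beside -0.97 in wild type. Its order among the replicates was the same at both stages, with B highest and C lowest. *APL4* (At2g21590), a large subunit of ADP-glucose pyrophosphorylase in starch synthesis, went from 8.32, 8.05 and 7.81 to 7.03, 7.02 and 6.37 (-1.26 ± 0.24, adjusted p = 0.0432), and the putative CTP synthase gene At4g20320 from 9.03, 9.0 and 9.12 to 8.17, 7.88 and 7.48 (-1.21 ± 0.22, adjusted p = 0.0415). Both changed by -0.77 in wild type, where neither passed the test (adjusted p = 0.0723 and 0.0554). The remaining named falls, At2g42990, At2g34700, At1g06000, At4g13210, At1g23590, At3g42850, At3g48460 and At2g16760, lack a role in the tables used here and ran from -1.23 to -2.48.

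**Figure D3:**
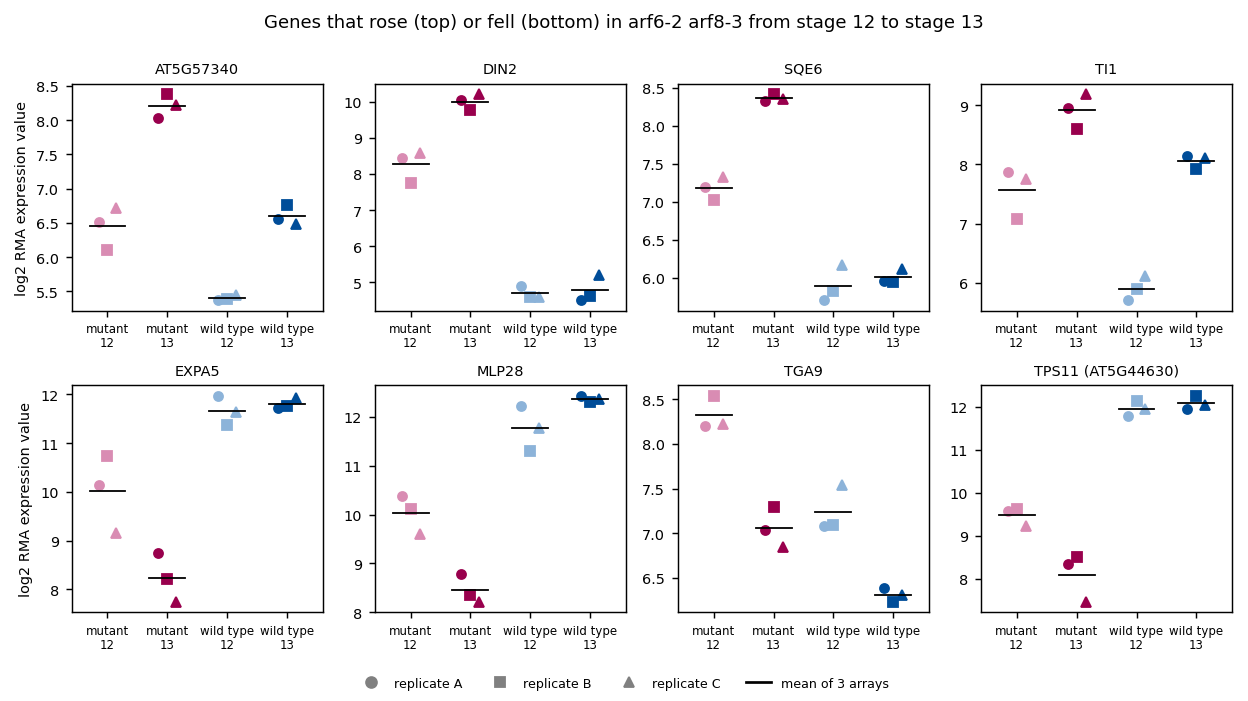
Log2 expression values of 4 genes that rose (At5g57340, *DIN2*, *SQE6*, *TI1*) and 4 that fell (*EXPA5*, *MLP28*, *TGA9*, *TPS11* At5g44630) in the mutant, 1 point per array with the letter A, B or C as the marker shape and a bar at the mean of each group. The mutant stage 13 points do not overlap the stage 12 points in any panel, and wild-type *DIN2*, *SQE6* and *EXPA5* stay level between the stages.

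The largest changes in size were in genes with high values on stage 12 replicates A and B, and most of them missed the test. At1g66850 had 12.38, 13.03 and 9.44 at stage 12 and 8.84, 7.83 and 5.23 at stage 13, a mean change of -4.32 on the log2 scale (adjusted p = 0.0632, and 0.0253 with the replicate block). The stages did not overlap, and replicate C was the lowest array at each stage. The gene fell by 5.50 in wild type. At1g23240 had 11.44, 11.49 and 9.69 at stage 12 and 8.08, 7.74 and 5.41 at stage 13, a mean change of -3.79 (adjusted p = 0.05 as rounded, just outside the threshold, and 0.0153 with the block) beside -4.43 in wild type. *ATA27* (At1g75940), a beta-glucosidase gene named for its expression in anthers, had 10.87, 12.38 and 5.17 at stage 12 and 7.02, 5.06 and 4.51 at stage 13. Here replicate C overlapped with stage 13, and the mean change of -3.94 did not pass the test (adjusted p = 0.189, and 0.00244 without stage 12 replicate C). These 3 were named after their values had been seen.

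The tapetum, the anther layer that feeds and coats pollen, showed the same pattern in its markers. Of 21 genes on the tapetum and pollen wall list, 3 could be matched to probe sets, and all 3 had a lower mean at stage 13 with an unadjusted p under 0.05 but not an adjusted one (limma). *AMS* (At2g16910), a bHLH regulator of tapetum development, had 6.25, 7.05 and 4.46 at mutant stage 12 and 4.5, 4.07 and 4.13 at stage 13. Replicates A and B were high, and C overlapped with stage 13 (-1.69 ± 0.48, adjusted p = 0.105, and 0.000796 without stage 12 replicate C). At1g75920 had 8.13, 10.13 and 5.84 at stage 12 and 5.6, 5.19 and 5.06 at stage 13 (-2.75, adjusted p = 0.102), and At5g07230 had 7.84, 9.38 and 5.06 at stage 12 and 5.84, 4.73 and 4.79 at stage 13 (-2.31, adjusted p = 0.166). Summed on the linear scale, the 3 genes gave 586, 1920 and 113 units in mutant stage 12 replicates A, B and C and 129, 80 and 79 at stage 13, against 90 to 132 in wild-type stage 12 flowers and 74 to 93 at stage 13. Mutant stage 12 replicates A and B were thus above all other arrays, and replicate C was within the range of wild-type stage 12. Since whole flowers were measured, fewer cells of a type and less RNA per cell cannot be told apart. The part of these cells in the other falls was not tested.

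**Figure D4:**
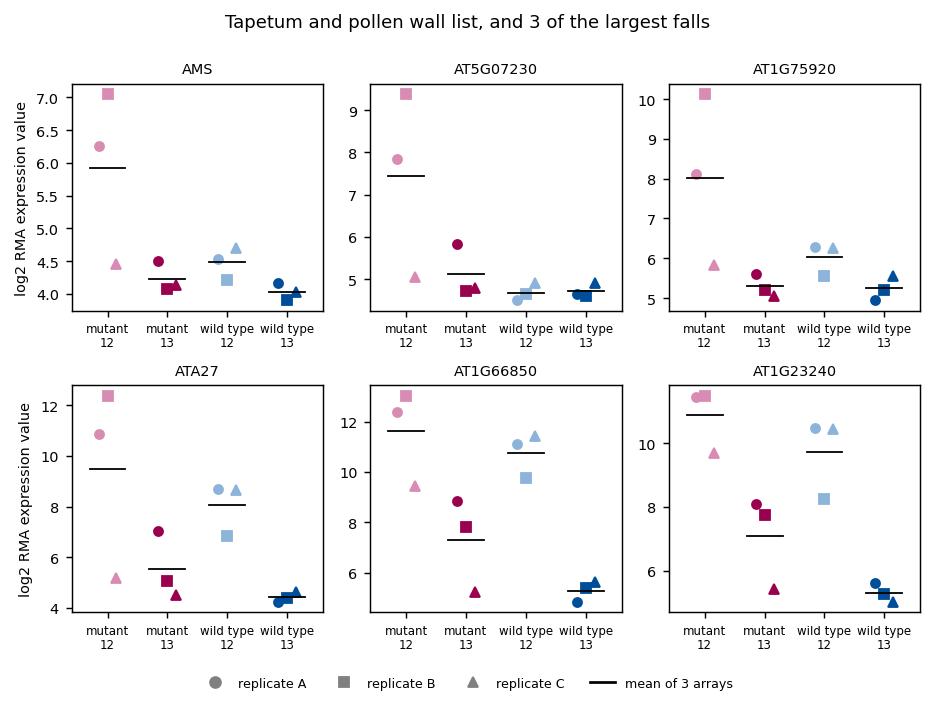
Log2 expression values of *AMS*, At5g07230, At1g75920, *ATA27*, At1g66850 and At1g23240, 1 point per array with the letter as the marker shape and a bar at each group mean. In mutant stage 12 the triangle of replicate C lies below replicates A and B in every panel, and for *AMS* it is at 4.46 against 6.25 and 7.05.

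Some pollen genes fell in wild type, while in the mutant none passed the test with all arrays. Of 12 measured members of the pollen maturation list (of 21), 0 rose and 0 fell in the mutant by limma (3 higher and 2 lower at an unadjusted p under 0.05), with a median change of -0.08, while 5 fell in wild type with a median of -1.0. The summed linear level was 5236, 2832 and 4778 at mutant stage 12 and 4616, 4284 and 2933 at stage 13, so the mutant stages overlapped, and in wild type it went from 7279 to 10562 at stage 12 to 3152 to 4964 at stage 13. *CNGC18* (At5g14870), a calcium channel gene needed for pollen tube growth, had 6.87, 6.28 and 6.94 at mutant stage 12 and 6.85, 7.04 and 6.41 at stage 13. It fell by 1.59 in wild type, and the 2 changes differed by 1.66 (adjusted p = 0.041). *ACT12*, a pollen actin gene, was the 1 member that fell with the replicate block, by 0.83. Without stage 12 replicate C, 3 members rose, *CPK17*, *ANX2* and *AGL65*. The calcium-dependent kinase gene *CPK17* (At5g12180) had 7.15, 5.95 and 8.06 at stage 12 and 8.56, 8.23 and 8.55 at stage 13 (1.39, adjusted p = 0.108, and 0.0072 without that array). The receptor kinase gene *ANX2* (At5g28680) had 7.39, 6.04 and 8.39 at stage 12 and 8.83, 8.53 and 8.63 at stage 13 (1.39, adjusted p = 0.145, and 0.0109 without that array). Neither overlapped between the stages, and replicate C was the highest stage 12 array for both.

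Genes of sugar starvation were higher at stage 13 in the mutant, although few passed the test. All 8 measured members of the 20 on this list had a positive change, with a median of 0.73 in the mutant and 0.00 in wild type, and 2 rose at an adjusted p under 0.05 (*DIN2* and *IVD*). Of the 8, *DIN1*, *DIN2*, *ASN1* and At2g18700 were named only from supplementary tables of genes selected on these arrays. Those 4 had medians of 1.01 in the mutant and -0.43 in wild type. The 4 named by the platform had 0.58 and 0.01. With the replicate block 4 of 8 rose, against 4.02% of all probe sets. *IVD* (At3g45300), isovaleryl-CoA dehydrogenase of leucine breakdown, had 8.54, 8.22 and 8.47 at stage 12 and 9.21, 9.06 and 8.92 at stage 13 (0.65 ± 0.12, adjusted p = 0.0415), and rose by 0.56 in wild type. Both members that joined with the block act in sugar signalling. *AKINBETA1* (At5g21170), a regulatory subunit of the SnRK1 kinase, had 9.84, 9.48 and 9.36 at stage 12 and 10.41, 10.36 and 9.92 at stage 13 (0.67, adjusted p = 0.153, with the block 0.00781). The trehalose-phosphate synthase gene At2g18700, which shares the symbol *TPS11* with the terpene synthase above, had 10.33, 9.86 and 10.38 at stage 12 and 11.19, 10.86 and 10.9 at stage 13 (0.79, adjusted p = 0.0536, with the block 0.028). *DIN1* (At4g35770), a senescence and darkness marker, had 11.01, 9.5 and 11.12 at stage 12 and 11.64, 11.71 and 11.77 at stage 13, and *ASN1* (At3g47340), the dark-inducible asparagine synthetase, had 10.66, 9.76 and 10.42 at stage 12 and 11.33, 11.23 and 10.88 at stage 13. Neither overlapped between the stages, replicate B was the low stage 12 array in both, and neither passed the test (adjusted p = 0.481 and 0.213). The difference from wild type passed with the replicate block for 3 members, *DIN2*, *AKINBETA1* (0.90, adjusted p = 0.00762) and *ASN1* (1.86, adjusted p = 0.0443).

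Aliphatic glucosinolate genes were also higher at stage 13 by their means, with no member called. These genes make the methionine-derived defence compounds of crucifers. All 9 measured members of the 17 were positive in the mutant, with a median of 0.58 against -0.42 in wild type, and 0 of 9 rose or fell at an adjusted p under 0.05 (limma), with 3 higher and 0 lower at an unadjusted p under 0.05. Of the 9, 6 were named only from supplementary tables of genes selected on these arrays (mutant median 0.61, wild type -0.42). The 3 named by the platform had a mutant median of 0.12 and a wild-type median of -0.7. With the replicate block 2 rose. *MYB28* (At5g61420), the main activator of the pathway, had 9.64, 9.21 and 9.65 at stage 12 and 10.21, 9.91 and 10.25 at stage 13 (0.63, adjusted p = 0.196, with the block 0.026). *BCAT4* (At3g19710), which starts methionine chain elongation, had 9.19, 7.22 and 10.18 at stage 12 and 10.5, 9.96 and 10.52 at stage 13, with overlap (1.46, adjusted p = 0.27, with the block 0.0445). Stage 12 replicate B was the low array for both. In 2 members the stage changes differed by the test, and in 4 with the replicate block, which added *MYB28* (0.95, adjusted p = 0.26, with the block 0.0251) and *CYP83A1* (At4g13770), a P450 gene of the pathway (1.71, adjusted p = 0.299, with the block 0.0131). Without stage 12 replicate C, 1 member, *BCAT4*, rose. *MAM3* (At5g23020), a methylthioalkylmalate synthase, stayed between 4.42 and 4.8 on the mutant arrays and fell by 2.67 in wild type (difference 2.77, adjusted p = 0.0257), and *GSTU20* (At1g78370), a glutathione transferase gene, changed by 0.04 in the mutant and by -1.13 in wild type (difference 1.16, adjusted p = 0.01).

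All 3 gibberellin receptor genes had higher means at stage 13. Of 6 measured members of the 17 gibberellin genes 1 rose, and with the replicate block 4 rose and 1 fell. Without stage 12 replicate C, 4 rose and 0 fell. *GID1C* (At5g27320), one of the receptors, had 6.96, 6.89 and 7.07 at stage 12 and 7.44, 7.58 and 7.74 at stage 13, without overlap and with little spread (0.61 ± 0.10, adjusted p = 0.0267). *GID1A* (At3g05120) had 9.54, 8.95 and 9.67 at stage 12 and 10.22, 10.11 and 10.46 at stage 13 (0.88, adjusted p = 0.0578, with the block 0.0171). *GID1B* (At3g63010) had 6.59, 6.03 and 7.18 and then 7.37, 7.13 and 7.61, with overlap (0.77, adjusted p = 0.145, with the block 0.0259). The differences from wild type were not past the threshold for any of the receptors. Of the response genes, *GASA4* (At5g15230) had 12.11, 12.04 and 12.0 at stage 12 and 11.76, 11.75 and 11.57 at stage 13 (-0.36, adjusted p = 0.114, with the block 0.0407), while it fell by 1.2 in wild type (difference 0.85, adjusted p = 0.0204).

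Senescence genes had a higher summed level in the mutant at stage 12 and a lower median change there. *NAC047* and *NAC092* had the highest mutant stage 12 means of the list, 9.79 and 8.81, against 6.87 and 7.25 in wild type. Both were named only from tables of genes selected on these arrays for a stage 12 difference from wild type. Of the members named by the platform, *SWEET15* started higher (8.59 against 7.79), *SAG101* and *WRKY53* slightly higher, and *WRKY6* lower (5.83 against 6.59). The summed linear level of the 6 measured genes was 1535 to 2458 units on the mutant stage 12 arrays and 3266 to 3829 at stage 13, without overlap, against 531 to 757 and 2097 to 3108 in wild type. Of 6 measured members of 24, 5 rose in wild type with a median over the list of 1.61, and 0 rose in the mutant by limma (2 at an unadjusted p under 0.05) with a median of 0.31. *NAC047* rose when stage 12 replicate C was left out. Both NAC factors of the list were the exceptions with the replicate block. *NAC047* (At3g04070) had 9.86, 9.23 and 10.27 at stage 12 and 10.98, 10.99 and 10.98 at stage 13, so that stage 13 was above all stage 12 arrays (1.2, adjusted p = 0.0518, with the block 0.0195). *NAC092* (At5g39610), a regulator of age-dependent senescence, had 8.57, 8.64 and 9.22 at stage 12 and 9.38, 9.72 and 10.08 at stage 13 (0.92, adjusted p = 0.145, with the block 0.0496). *SWEET15*, *WRKY53* and *WRKY6* changed less in the mutant by the test. *SWEET15* (At5g13170), a sugar exporter gene, differed by -2.04 (adjusted p = 0.0452), *WRKY53* (At4g23810) by -1.73 (adjusted p = 0.00812) and *WRKY6* (At1g62300) by -0.96 (adjusted p = 0.0395).

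A number of jasmonate genes fell in wild type, while none passed the test in the mutant. For synthesis, 7 of 16 genes were measured, and 0 rose or fell in the mutant by limma (median -0.29, with 4 lower at an unadjusted p under 0.05), against 4 falls in wild type (median -0.54). All 4 wild-type falls were among the 5 genes named only from supplementary tables of genes selected on these arrays (wild-type median -0.76). The 2 named by the platform, *OPCL1* and *JMT*, had 0 wild-type falls (median 0.09). *LOX4* (At1g72520), a lipoxygenase, had 6.05, 5.87 and 5.8 at mutant stage 12 and 5.85, 5.86 and 6.0 at stage 13, all below the wild-type stage 12 mean of 7.71, and its wild-type fall of 1.68 was absent (difference 1.68, adjusted p = 0.000267). *JMT* (At1g19640), which makes methyl jasmonate and is expressed in nectaries, had 7.98, 8.83 and 7.64 at stage 12 and 6.78, 7.23 and 6.95 at stage 13 (-1.17, adjusted p = 0.0894, with the block 0.0325, and 0.0212 without stage 12 replicate C). Its difference from wild type of -1.66 passed with the block alone (adjusted p = 0.104, with the block 0.0443). For signalling, 11 of 16 genes were measured, all of them named from supplementary tables of genes that had been selected on these arrays. In the mutant 0 rose or fell by limma (median 0.13, with 1 higher and 3 lower at an unadjusted p under 0.05), 7 fell in wild type (median -0.73), and 5 differed by the test, all of them *JAZ* genes, which encode repressors of the pathway that jasmonate itself induces. *JAZ5* (At1g17380) had 6.34, 6.27 and 6.24 at mutant stage 12 and 5.93, 5.87 and 5.82 at stage 13 (-0.41, adjusted p = 0.0978, with the block 0.0356), against a wild-type fall of 2.00, and the changes differed by 1.59 (adjusted p = 0.000754). *JAZ7* (At2g34600) had 4.91, 5.01 and 4.86 and then 5.54, 5.72 and 5.51 (0.66, adjusted p = 0.146), and differed from wild type by 1.5 (adjusted p = 0.0426). *JAZ3*, *JAZ8* and *JAZ9* differed by 0.77, 0.98 and 0.93. With the block 7 members differed, which added *JAZ2* (0.57, adjusted p = 0.04) and *JAZ6* (0.56, adjusted p = 0.0223).

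The MYB factors downstream stayed low. *MYB21* (At3g27810) had 4.68, 4.4 and 4.43 at mutant stage 12 and 4.88, 6.19 and 5.02 at stage 13, where replicate B alone was high (0.86, adjusted p = 0.124). Its second probe set changed by 0.03 (adjusted p = 0.98), and the wild-type means on the first were 12.4 and 12.36. *MYB24* (At5g40350) stayed between 3.67 and 4.25 in the mutant and fell by 1.37 in wild type (difference 1.44, adjusted p = 0.0393). *MYB57* (At3g01530), a close relative, had 5.46, 6.23 and 6.15 at stage 12 and 5.28, 6.02 and 5.55 at stage 13 (-0.33, adjusted p = 0.837) beside a wild-type rise of 2.38, with a difference of -2.71 (adjusted p = 0.0951, with the block 0.00512). *MYB108* (At3g06490), which acts in stamen maturation, changed by 0.43 in the mutant (adjusted p = 0.719).

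Auxin-responsive gene families in which several members rose in wild type had medians near 0 in the mutant. Most of these rises were of members named only from supplementary tables of genes selected on these arrays. Those were 6 of the 13 Aux/IAA genes, with 4 wild-type rises and a wild-type median of 1.1. The 7 named by the platform had 1 rise and a median of -0.01. For *SAUR*, 17 of 20 were named only from those tables (7 wild-type rises, median 0.7). The 3 named by the platform had 1 rise (median 0.04). The Aux/IAA genes encode the repressors that bind ARF proteins. Of 13 measured, 0 rose or fell in the mutant by limma (median -0.07, with 4 lower at an unadjusted p under 0.05) and 5 rose in wild type (median 0.67), and 1 difference passed the test, that of *IAA1* (At4g14560), at -1.64 (adjusted p = 0.0424). The replicate block gave 5 of 13 differences. *IAA1*, *IAA6* (-2.37, adjusted p = 0.0173), *IAA19* (-1.76, adjusted p = 0.0497) and *SHY2* (-1.0, adjusted p = 0.0129) were more negative in the mutant, and *IAA33* (0.89, adjusted p = 0.017) was more positive. Of 20 measured *SAUR* genes, which encode small growth-related proteins, 0 rose or fell in the mutant by limma (median -0.01, with 3 higher and 1 lower at an unadjusted p under 0.05), and 8 rose and 3 fell in wild type (median 0.68). With the replicate block 3 *SAUR* genes rose in the mutant, At3g60690, At3g61900 and At2g46690, at 1.06, 0.72 and 1.10, and 1 fell, At2g21220, at -1.30. The counts were also 3 and 1 without stage 12 replicate C. In the test of the difference 2 *SAUR* genes were more positive and 4 more negative in the mutant, and 2 and 9 with the block. *SAUR9* (At4g36110) stayed between 5.04 and 5.57 on the 6 mutant arrays while its wild-type mean went from 7.1 to 10.66, and the changes differed by -3.41 (adjusted p = 0.00333).

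Cell wall families were split. Of 23 measured expansin genes (of 38), 3 fell and 0 rose in the mutant, and 8 fell with the replicate block, against 0.325% and 4.56% of all probe sets. Besides *EXPA5* these were *EXPB1* (At2g20750), with 7.36, 7.79 and 7.76 at stage 12 and 6.54, 6.83 and 6.64 at stage 13 (-0.97 ± 0.14, adjusted p = 0.02), and *EXPA1* (At1g69530), with 10.01, 10.28 and 10.16 at stage 12 and 9.32, 9.28 and 9.23 at stage 13 (-0.87 ± 0.12, adjusted p = 0.0159). Both fell in wild type as well, by 0.80 and 1.15, and their arrays did not overlap between the mutant stages. The median over the family was -0.13 in both genotypes, and 3 members rose and 4 fell in wild type. *EXPA5* and *EXPA1* were among 4 expansin genes named only from tables of genes selected on these arrays. Those 4 held 2 of the 3 falls in the mutant, and 3 of the 8 with the block. The 19 named by the platform held 1 fall, and 5 with the block. Of 15 measured *XTH* genes, which encode enzymes that cut and rejoin xyloglucan, 0 rose or fell in the mutant by limma (median -0.02, with 1 lower at an unadjusted p under 0.05), and 9 rose and 1 fell in wild type (median 0.67). The replicate block gave 1 fall in the mutant, *XTH8* (At1g11545), with 6.98, 7.29 and 6.19 at stage 12 and 6.17, 6.07 and 5.7 at stage 13, without overlap (-0.84, adjusted p = 0.0964, with the block 0.0222, and 0.00342 without stage 12 replicate C). *XTH19* (At4g30290) had 4.53, 4.86 and 5.0 at mutant stage 12 and 4.93, 4.81 and 4.9 at stage 13, with a wild-type rise of 3.67 and a difference of -3.59 (adjusted p = 0.00237).

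Genes of floral scent and nectar rose in wild type in part and fell or stayed uncalled in the mutant. Of 8 measured terpenoid genes (of 10), only *TPS11* fell in the mutant and 6 rose in wild type, with medians of -0.07 and 1.49. The differences passed the test for *CYP71B31*, *CYP76C3*, *TPS10*, *TPS21* and *TPS24*, and with the replicate block also for *TPS11* and *CYP76C1*. *CYP71B31* (At3g53300), a cytochrome P450 gene of this pathway, had 4.04, 4.08 and 4.14 at mutant stage 12 and 3.95, 3.98 and 4.0 at stage 13, while its wild-type mean rose from 8.49 to 12.49 (difference -4.11, adjusted p = 0.000275). Of 6 measured nectary genes (of 8), 0 rose or fell in the mutant by limma (median -0.48, with 3 lower at an unadjusted p under 0.05), and 3 fell with the replicate block, namely *JMT* above, *CWINV4* and *CRC*. *CWINV4* (At2g36190), the cell wall invertase needed for nectar secretion, had 8.49, 8.47 and 7.95 at stage 12 and 7.22, 7.43 and 6.55 at stage 13 (-1.24 ± 0.26, adjusted p = 0.0536, with the block 0.00609), against 0.41 in wild type (difference -1.65, adjusted p = 0.0583, with the block 0.00361). *CRC* (At1g69180), the YABBY factor required for nectary formation, had 8.42, 8.57 and 8.18 and then 7.64, 7.97 and 7.23 (-0.78, adjusted p = 0.0813, with the block 0.0168). For both genes all stage 13 arrays lay below all stage 12 arrays. The fit without stage 12 replicate C gave 3 falls among the nectary genes as well. In wild type 1 nectary gene rose and 0 fell (median 0.53). It was the nectary sugar transporter gene *SWEET9* (At2g39060), with a rise of 1.95. On the mutant arrays *SWEET9* stayed between 5.86 and 6.47, a change of -0.19. Its difference of -2.14 was the 1 in this list that passed limma's test without the block (adjusted p = 0.0182).

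In the other lists few members changed in the mutant. Of 46 measured cytochrome P450 genes, 1 rose, *CYP71B23* (At3g26210), with 5.04, 5.27 and 5.3 at stage 12 and 6.29, 6.91 and 5.94 at stage 13 (1.18 ± 0.20, adjusted p = 0.0359), and with the replicate block 7 rose and 2 fell. Leaving out stage 12 replicate C gave 6 rises and 0 falls. Of 5 measured genes of abscisic acid and drought only *HIS1-3* rose. It was also the only 1 with a positive change, and the median was -0.58. *RD29A* (At5g52310) had 10.18, 9.54 and 10.22 at stage 12 and 9.01, 8.37 and 9.22 at stage 13. Its arrays did not overlap, and it did not pass the test (-1.12, adjusted p = 0.117, with the block 0.0809). The cold and drought genes *COR15A* (At2g42540) and *COR15B* (At2g42530) changed by -0.58 and -0.66, with adjusted p of 0.106 and 0.167 (0.0222 and 0.0161 with the block). Of 3 measured flavonoid genes *MYB12* (At2g47460), a flavonol regulator, fell from 6.94, 7.13 and 7.04 to 6.5, 6.53 and 6.5 (-0.52 ± 0.08, adjusted p = 0.0267), as it did in wild type (-0.56). Of 7 measured light harvesting genes, which mark green tissue, 0 rose or fell by limma (0 at an unadjusted p under 0.05 too), with a median of 0.03. Their summed linear level was 46522 to 47419 units in mutant stage 12 arrays and 46927 to 49843 at stage 13, overlapping, and 32327 to 39175 in wild type. Of 18 *SWEET* and sugar transporter genes 0 rose or fell by limma (3 higher and 3 lower at an unadjusted p under 0.05), and with the replicate block *SWEET11* rose and *SWEET3* fell, at 0.60 and -1.77. When stage 12 replicate C was left out, 1 rose and 2 fell. Of 6 genes of carpel, style and transmitting tract 0 rose or fell by limma (1 higher and 1 lower at an unadjusted p under 0.05). The floral organ identity genes, which would check the tissue, are not named by the tables used here.

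**Figure D5:**
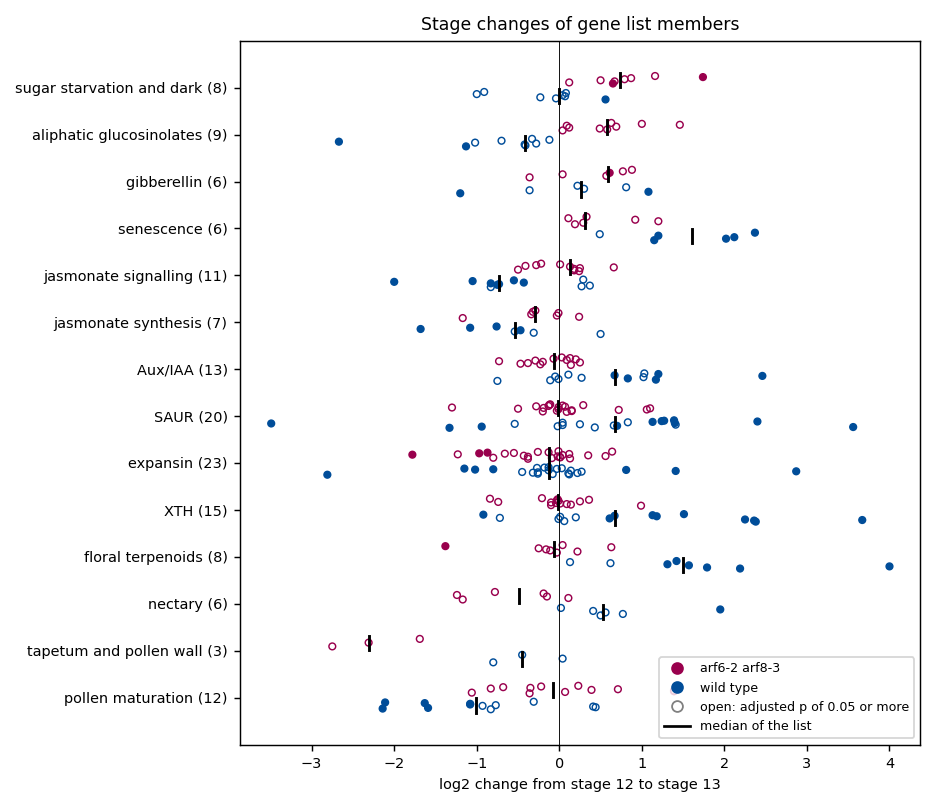
Stage 13 minus stage 12 log2 change of each measured member of 14 gene lists, in the mutant and in wild type, with a bar at the median of each list. Mutant medians run from -2.31 for the 3 tapetum genes to 0.73 for sugar starvation, and the terpenoid, *SAUR*, Aux/IAA and *XTH* lists, with wild-type medians of 0.67 to 1.49, have mutant medians of -0.07 to -0.01. Of the *SAUR* and Aux/IAA members, 17 of 20 and 6 of 13 were named only from tables of genes selected on these arrays. So were 4 of 8 sugar starvation and 6 of 9 aliphatic glucosinolate members.

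The pattern most often behind a difference between the genotypes was a wild-type change without a call in the mutant. Of the 165 probe sets more negative in the mutant, 155 rose in wild type without a call in the mutant, and of the 57 more positive, 51 fell in wild type without one. A missing call does not show that a gene stayed level, since the mutant calls depended on the arrays in the fit. In the mutant *CYP71B31* changed by -0.11, while At5g10770 rose by 0.88 (limma, adjusted p = 0.148, with the block 0.0317). For 17 probe sets the mutant change itself passed at an adjusted p under 0.05 and differed from wild type, 10 of them higher and 7 lower at stage 13. The named ones were *DIN2*, At1g54740, *SQE6*, At1g49310, *UMAMIT33* and *MYB59* among the higher and *MLP28* and *WAG2* among the lower. Of these, all but *DIN2* and *MLP28* were named after their values had been seen.

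Among them *SQE6* (At5g24160), a squalene monooxygenase gene of sterol and triterpene synthesis, had 7.19, 7.02 and 7.33 at mutant stage 12 and 8.33, 8.42 and 8.35 at stage 13, without overlap (1.19 ± 0.12, adjusted p = 0.00468), and changed by 0.11 in wild type (difference 1.08, adjusted p = 0.013). At1g54740 had 8.26, 7.56 and 7.78 at stage 12 and 9.2, 8.92 and 9.11 at stage 13 (1.21 ± 0.16, adjusted p = 0.0157), against -0.40 in wild type (difference 1.61, adjusted p = 0.00812). *UMAMIT33* (At4g28040), of a family of amino acid transporters, had 10.19, 9.84 and 10.24 at stage 12 and 10.86, 11.25 and 11.1 at stage 13 (0.98 ± 0.18, adjusted p = 0.0416), against -0.59 in wild type (difference 1.57, adjusted p = 0.0138). In these the mutant also started above wild type, whose stage 12 means were 5.89, 6.6 and 8.64. *SQE6* and *UMAMIT33* were named only from tables of genes selected on these arrays for a stage 12 difference from wild type. Their starting levels are thus not independent of that choice. *MYB59* (At5g59780), a MYB factor, had 8.14, 7.91 and 8.44 and then 9.02, 9.07 and 8.92 (0.84, adjusted p = 0.0324, difference 0.97), and At1g49310 had 5.26, 5.34 and 5.41 and then 6.49, 6.5 and 6.15 (1.04, adjusted p = 0.00468, difference 0.77).

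*WAG2* (At3g14370) was the only one of the 17 that changed in opposite directions by the test in the 2 genotypes. It encodes an AGC protein kinase that phosphorylates PIN auxin carriers. Its values were 5.73, 5.69 and 5.73 at mutant stage 12 and 4.85, 5.03 and 4.84 at stage 13, a fall of 0.81 ± 0.14 on the log2 scale (adjusted p = 0.0352). In wild type it rose from 5.39, 5.36 and 5.21 to 6.52, 6.37 and 6.97, by 1.30 (adjusted p = 0.000223), and the changes differed by -2.11 (adjusted p = 0.000425). Neither genotype had overlapping arrays between its stages.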

How the data were processed

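Whole flowers were hybridised to ATH1 arrays, 3 biological replicates for each of 6 groups. RNA was isolated with Trizol or RNeasy kits, and the sources used here do not tell which array had which. The deposited log2 values, 1 per probe set, were made by the authors by RMA (background correction, quantile normalization and summary) in Genespring without baseline correction, after scanning under MAS5 software, per the labels and the methods. Scanner intensities were not used here, and no further scaling was applied.

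Of the probe sets, 22746 were tested after control probe sets were left out. The platform table named 13513 with 1 gene and 503 with several, the study's supplementary tables named a further 512, and 8218 stayed unnamed. Those tables hold genes selected on these arrays, so members named only there are not independent evidence. A gene stands for its probe set, and where it has several, for the one with the highest mean. Levels are not compared between genes. No sequences or coordinates are given.

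Linear models (lmFit, then eBayes, of limma 3.58.1 in R 4.3.3 with statmod 1.5.0) were fitted to 12 arrays, both stages of *arf6-2 arf8-3* and wild type, with 4 group means (8 residual degrees of freedom). The contrasts were stage 13 minus stage 12 in each genotype and the difference of the 2 changes, all two-sided with Benjamini-Hochberg adjustment over 22746 probe sets. Calls need an adjusted p under 0.05 and a 2-fold change. For gene lists the adjusted p alone decided, whatever the fold, and no set test was run. The number of arrays per group, 3, limits the precision. What the replicate letters share is not stated, but arrays of the same letter deviated together between the stages of each genotype (correlations of 0.74, 0.33 and 0.48 in the mutant and 0.66, 0.35 and 0.61 in wild type). Letters A, B and C were therefore used as a block in an alternative fit, whose values are given beside the counts and the genes described where a call changes. That block holds 1 effect per letter, shared by both genotypes. Between mutant and wild type, the correlations for A, B and C were 0.64, -0.02 and 0.2 at stage 12 and 0.55, 0.23 and 0.37 at stage 13. Mutant C and wild-type B, of different letters, reached 0.24 at stage 12. At stage 12 a shared effect of B and C is thus not borne out. Where replicates came from separate plants or pools is not stated, so p-values measure the spread between these samples.

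Named genes are the targeted and *MYB* genes, the 15 largest named rises and 15 largest named falls among calls without overlap, up to 4 called members per list (or the 2 with the smallest p), the 10 largest differences each way, and the 5 largest rises and falls shared with wild type. The members and lists were chosen with earlier results of these data known. Alternatives comprised other sets of arrays, array weights, normalization, filters, thresholds, the methods' t-test and leaving out each array. The code was checked on simulated data. Tables and plots were made in Python 3.11.15 with pandas 2.3.3, numpy 2.4.6 and matplotlib 3.10.9.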

Additional observations from a re-analysis of the deposited data

Results flagged for a closer look

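For the following genes the stage change differed between the 2 genotypes by limma's test of the difference (adjusted p under 0.05 and at least 2-fold). Values are the mutant change minus the wild-type change in log2 units, and a positive value in these genes goes with a wild-type fall that was smaller or missing in the mutant, unless stated otherwise.

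The wax and fatty acid elongation gene *KCS17* differed by 3.41, the transporter genes *UMAMIT25*, *ABCG20* and *FRD3* by 2.96, 2.94 and 2.71, and the glucosinolate gene *MAM3* by 2.77. The loci At5g33370, At1g51915, At5g46200, At1g64800 and At2g21220 (a *SAUR* gene) differed by 2.41, 2.39, 2.37, 2.35 and 2.19. *MYB24* differed by 1.44, *JAZ5* by 1.59 and *JAZ7* by 1.5. *DIN2* differed by 1.66, which was a rise in the mutant and no call in wild type. For some of these genes the mutant stage 12 mean was already below the wild-type stage 13 mean, which left no room for a fall to that level. These means were 5.6 and 7.0 for *KCS17*, 5.56 and 6.63 for *ABCG20*, and 4.55 and 4.6 for *MAM3*. They were 3.96 and 8.53 for *MYB24*, 6.28 and 7.55 for *JAZ5*, and 4.93 and 6.43 for *JAZ7*. The other genes of this paragraph started above it in the mutant, though *UMAMIT25* (6.8 and 6.59) and *FRD3* (7.35 and 7.3) did so by little.

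In the other direction, *CYP71B31* differed by -4.11, *XTH19* by -3.59, *SAUR9* by -3.41, the peroxidase gene At5g64120 by -2.95 and At2g47550 by -2.77. At5g10770 and At2g43620 both differed by -2.57, At1g07590 and the expansin-like gene *EXLA1* both by -2.52, and At5g67340 by -2.51. These 10 rose in wild type. *MLP28* differed by -2.19, with a fall in the mutant and no call in wild type.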

How the results depend on the processing

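No named gene changed sign in the mutant under an alternative while passing the test in that fit or in the one reported, though genes with changes near 0 did change sign, among them *ARF6* and *ARF8*. The balance of calls in the mutant, with more rises than falls in the fit reported, turned to more falls with either replicate block, with array weights, without dim probe sets, with the unadjusted t-test and without stage 12 replicate C, and the counts of calls in the mutant moved widely, and the cause was not tested beyond each alternative's own construction. Counts are of probe sets higher and lower. In the mutant, a fit of only its 6 arrays called 1 and 0 (fewer arrays share the spread), against 39 and 28 in the fit reported. At an unadjusted p under 0.05 and any fold, the fit reported gave 1788 and 1935. All 18 arrays gave 18 and 9, the 17 arrays without the one labelled *myb21-5 myb24-5* stage 13 replicate A gave 103 and 86, and array quality weights gave 286 and 341. Leaving out dim probe sets (mean log2 value under 6) gave 43 and 50. The methods' t-test gave 101 and 111 at its own threshold without adjustment and 1 and 0 after Benjamini-Hochberg adjustment. An adjusted p under 0.01 gave 6 and 0, a 1.5-fold threshold 85 and 61, and a 4-fold threshold 4 and 1. Leaving out each array in turn gave 6 to 335 higher and 0 to 358 lower. Median centring, quantile normalization and an intensity trend with robust variances stayed within 1.5 times of the counts reported.

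With the replicate block, 137 and 178 were called in the mutant and 143 and 268 in the difference test. With the letter as a replicate block within each genotype, chosen after seeing the data, the counts were 233 and 279 in the mutant and 211 and 315 in the difference test. The wild-type counts stayed within 1.5 times under both. In the difference test, array weights gave 158 more positive, an adjusted p under 0.01 gave 15 and 72, a 1.5-fold threshold gave 92 more positive, a 4-fold threshold gave 13 and 46, and leaving out each array gave 29 to 155 and 106 to 244. In wild type the adjusted t-test gave 91 and 58, a 1.5-fold threshold 794 and 668, a 4-fold threshold 94 and 132, and leaving out each array 357 to 473 and 285 to 444. Of the 102 named genes, 33 passed in the mutant, of which all 33 were lost with only 6 arrays and 31 without mutant stage 12 replicate A, while 20 were gained without stage 12 replicate C and 21 with the replicate block. Centring on reference genes could not be run, since the tables used here name none of them.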
